A study of Mus musculus with 26 samples.

Results

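Alas1, Alas2, Alad, Uros, Urod, Cpox, Ppox and Fech encode enzymes that build heme. Each was found by its Ensembl identifier, giving 8 of the 52636 genes in the count files. They were chosen by function, with earlier results of these data known. The 26 libraries came from mice with and without Prss57, the gene of neutrophil serine protease 4 (NSP4). Granulocyte-macrophage progenitors (GMPs) and common myeloid progenitors (CMPs) were sorted from the bone marrow of female mice, with 4 wild-type and 4 Prss57-/- libraries of each. Both gates were lineage-negative, SCA-1-negative and positive for CD117 and CD34, with high CD16/32 for GMPs and low CD16/32 for CMPs. Bone marrow-derived mast cells (BMMCs), which the study grew from sorted GMPs in IL-3 and SCF, came from male mice, with 5 wild-type and 5 Prss57-/- libraries. Prss57-/- mice carried a germline deletion of exon 2, by the study's methods, and so lacked the gene in every cell, and wild-type littermates served as controls for GMPs and BMMCs. The labels give no age and no treatment beyond the culture. The GMP and CMP libraries were read in one sequencing run and the BMMC libraries in another, so that cell type, sex, culture and run cannot be told apart wherever BMMCs are set against progenitors. Libraries of a group are taken as separate animals or cultures only as far as their labels number them, and p-values measure the spread between these libraries.

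Heme is made from glycine and succinyl-CoA in a chain of enzymes that begins and ends in the mitochondrion and passes through the cytosol in between. Aminolevulinate synthase makes the first intermediate and sets the pace of the chain; Alas1 encodes the form used in most tissues and Alas2 the form of erythroid cells. Alad, Uros and Urod act in the cytosol on aminolevulinate and the porphyrinogens that follow, Cpox and Ppox oxidize these in the mitochondrion, and Fech, ferrochelatase, inserts iron. Erythroid cells make heme for hemoglobin, and granulocytic cells need it for myeloperoxidase and for the cytochrome of the NADPH oxidase.

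The libraries held between 18627626 and 53264762 counts. Levels below are nRPKM, the deposited counts per length and depth after scaling by a size factor, which allow genes of different length to be compared. Prss57 itself was at 123 to 198 nRPKM in wild-type GMPs and at 0.0400 to 0.178 in Prss57-/- GMPs, and at 17.0 to 32.0 against 0.00537 to 0.0125 in CMPs, so that all 16 progenitor libraries matched their genotype label. BMMCs hardly used the gene, with 0.0354 to 0.451 nRPKM in wild-type and no count in any of the 5 Prss57-/- libraries. Marker genes followed the labels: 10 granulocyte-macrophage genes summed to 27778 to 41428 nRPKM in GMPs and to 4019 to 10305 in CMPs, 16 erythroid genes to 59.7 to 133 in GMPs and 1143 to 2072 in CMPs, and 10 mast cell genes to 25307 to 76156 in BMMCs. The BMMC libraries also held macrophage and dendritic cell transcripts, 11 genes of which summed to 11212 to 21292 nRPKM in 9 libraries and to 1165 in Prss57-/- library 3, which had the highest mast cell sum. Prss57-/- CMP library 2 stood apart as well, with short genes read relatively high for its group. Its slope on the log2 scale per doubling of gene length was -0.376, against -0.0338 to 0.346 in the other Prss57-/- CMP libraries. Slopes are measured against the mean of a library's own group, so those of different groups are not on one scale. Prss57-/- CMP library 1, at 0.346, lay almost as far out the other way. Fold changes that Prss57-/- BMMC library 3 or Prss57-/- CMP library 2 moved most are given with and without it. In bulk samples such as these, fewer cells of a type and less RNA per cell cannot be told apart.

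The upstream sequence is shown for Alas1, for Alad and Cpox, which were among the members that moved the opposite way between the progenitors, and for the erythroid isozyme. Urod, which differed more than Cpox, and Uros moved the same way as Alad and Cpox but are not shown. RefSeq (GRCm38.p6) lists promoter windows for 7 of the 8 members; Fech has no entry. In the 250 bases before each listed start, 4 short motifs were searched on both strands: AGATAA and TGATAA, letters bound by GATA factors, CACCC, bound by KLF factors, and GCATGCG, the core of the NRF1 site. Of 32851 mouse promoters of the same length, 9.99% held AGATAA, 7.94% TGATAA, 52.01% CACCC and 3.02% GCATGCG. Capitals mark the matches, and bases that the annotation places in an exon of the gene are left out, except that Alas1, whose windows lie mostly in an annotated exon of the gene, is shown by the 30 bases around its matches. All are written 5′ to 3′ on the strand of the gene. Alas1 is from chr9:106247908-106247937 (minus strand), Alas2 from chrX:150547167-150547374 (plus), Alad from chr4:62519919-62520159 (minus) and Cpox from chr16:58669958-58670207 (plus).
Alas1: gccgCACCCaaggCGCATGCGcggcggtca
Alas2: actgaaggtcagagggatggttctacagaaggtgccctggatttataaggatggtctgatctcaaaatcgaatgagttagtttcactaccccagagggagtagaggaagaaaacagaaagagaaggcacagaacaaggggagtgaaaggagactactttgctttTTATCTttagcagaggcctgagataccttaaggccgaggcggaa
Alad: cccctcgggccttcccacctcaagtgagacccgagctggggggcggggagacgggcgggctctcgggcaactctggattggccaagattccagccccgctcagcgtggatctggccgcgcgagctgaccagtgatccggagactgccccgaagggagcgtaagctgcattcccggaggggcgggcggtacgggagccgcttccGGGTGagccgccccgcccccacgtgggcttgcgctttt
Cpox: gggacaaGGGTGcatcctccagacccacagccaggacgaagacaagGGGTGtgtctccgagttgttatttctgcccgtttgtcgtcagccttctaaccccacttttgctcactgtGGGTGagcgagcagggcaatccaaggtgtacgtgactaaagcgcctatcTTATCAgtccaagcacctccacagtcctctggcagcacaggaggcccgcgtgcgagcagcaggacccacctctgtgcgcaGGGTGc

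The Alas1 stretch held CACCC and a palindrome that gives GCATGCG on both strands, 193 bases before the start. The Alas2 stretch held AGATAA on the opposite strand, 86 bases before the start, and 3 further CACCC matches fell in the 42 exonic bases that are not shown. Cpox held TGATAA 86 bases before its start and 4 CACCC matches, whereas 1 of the 2 windows of Alad, the one shown, held a single CACCC match, and neither held GATA letters. The windows of Ppox and Urod held none of the 4 motifs. Uros held TGATAA in 1 of its 2 windows. Such matches describe the letters only.

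The levels of the 8 genes in all 26 libraries are plotted by group. The first enzyme, Alas1, was the highest of the 8 in GMPs, where it ranked 247th of 22159 genes with a level above 0 in the wild-type group, and was 2233rd of 22421 in wild-type CMPs. In wild-type GMPs it was at 219.6, 229, 233 and 232 nRPKM in libraries 1 to 4, and in Prss57-/- GMPs at 201, 207, 229 and 229.8. In CMPs it was at 26.9, 32.0, 42.9 and 46.7 in the wild-type libraries and at 39.5, 26.1, 47.8 and 57.7 in the Prss57-/- libraries. Every GMP library thus lay above every CMP library, with a gap from 57.7 to 201 nRPKM. The wild-type BMMC libraries were at 49.0, 38.4, 66.1, 47.9 and 46.9, within or just above the CMP range.

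**Figure D1:**
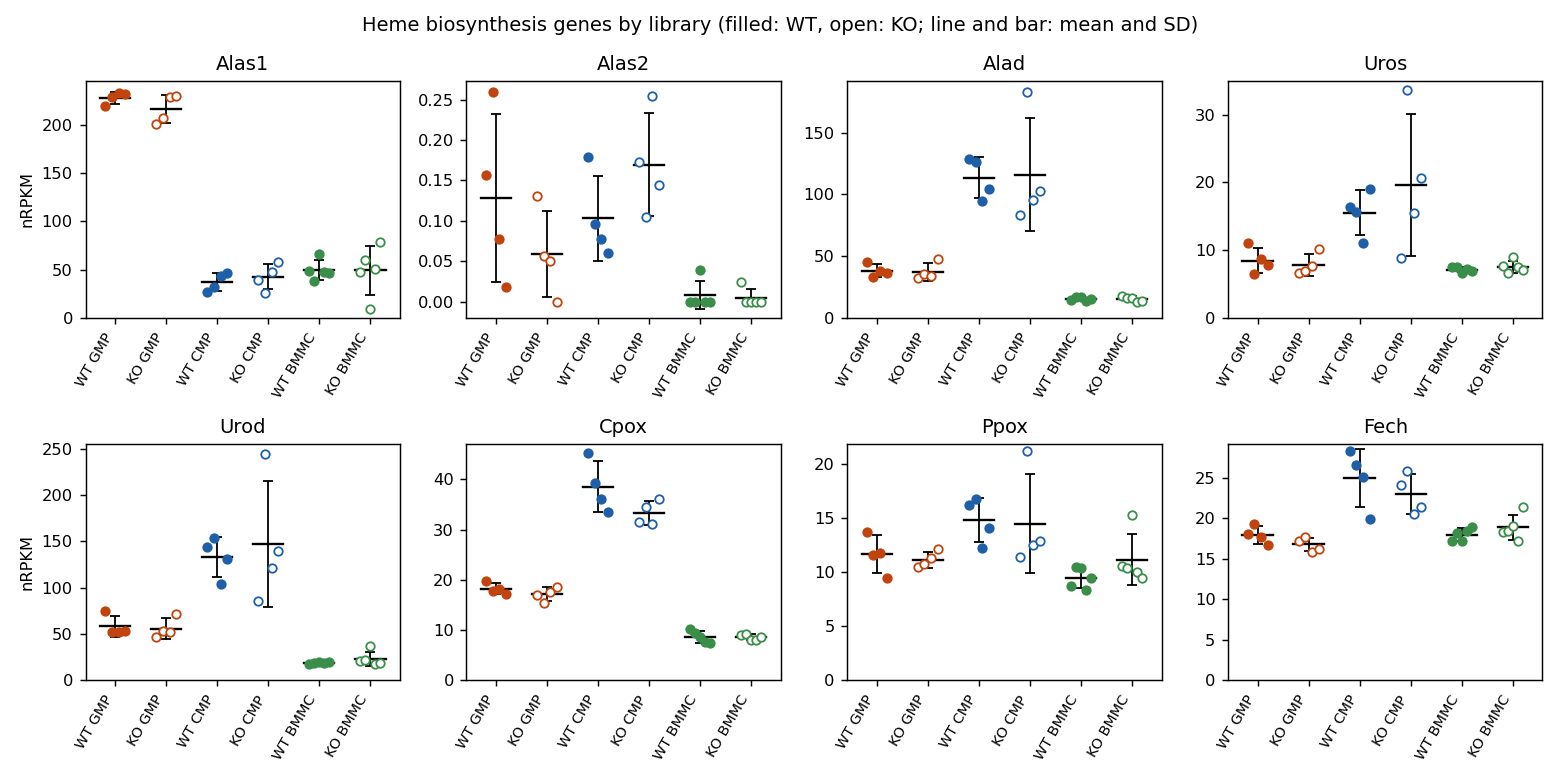
nRPKM (vertical axis, linear, a scale for each gene) of the 8 heme biosynthesis genes in each library, by group, with wild-type libraries filled and Prss57-/- (KO) libraries open; the line and bar are the group mean and SD. Alas1 sits at 201 to 233 in GMPs and at or below 78.7 elsewhere, while Alad, Urod and Cpox are highest in CMPs and lowest in BMMCs.

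The erythroid isozyme, Alas2, was close to the limit of detection in every group. It had 0 to 32 counts in GMPs and 5 to 34 in CMPs, or at most 0.259 and 0.255 nRPKM, and 0.0602 to 0.255 in the CMP libraries against 0 to 0.259 in the GMP libraries, so that the cell types overlapped. All 10 BMMC libraries were at or under the floor of 3 counts, and 8 of these had no count, which allows a level of up to 0.0526 to 0.0861 nRPKM depending on the library. Of the summed Alas1 and Alas2 level, Alas2 made up 0.317% ± 0.240 (SD, n = 4) in wild-type CMPs and 0.0563% ± 0.0459 (SD, n = 4) in wild-type GMPs. The CMP libraries held other erythroid transcripts at far higher levels: Car1, carbonic anhydrase 1, was at 740.1 nRPKM, Klf1, an erythroid transcription factor, at 97.5 and Epor, the erythropoietin receptor, at 32.9 on average in wild-type CMPs, whereas Hba-a1, an alpha-globin gene, was at 6.40. Alas2 lies wholly within the span of Apex2 on the other strand, which had 194 to 944 counts, and whether reads were counted by strand is not given in the sources used here. Its few counts are therefore uncertain.

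Sorted GMPs and CMPs came from the same run and sex. In wild-type cells Alas1 was 6.22-fold higher in GMPs than in CMPs, while Alad, Urod, Cpox, Uros and Fech were all lower. Of the 8 members, all of which passed the filter on low counts, 1 was higher and 5 were lower by edgeR's quasi-likelihood test at an adjusted p under 0.05. Of the 14967 genes tested, 19.0% were higher and 18.8% lower, or 37.8% in all (2843 and 2821 genes, or 1964 and 4060 where libraries were scaled by their totals alone, which moved the median of all genes to -0.16 on the log2 scale). The median log2 fold change was -0.66 over the 8 members and -0.02 over all genes tested. For Alas1 the log2 fold change was 2.64 (SE 0.18, edgeR adjusted p = 3.37e-06).

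**Figure D2:**
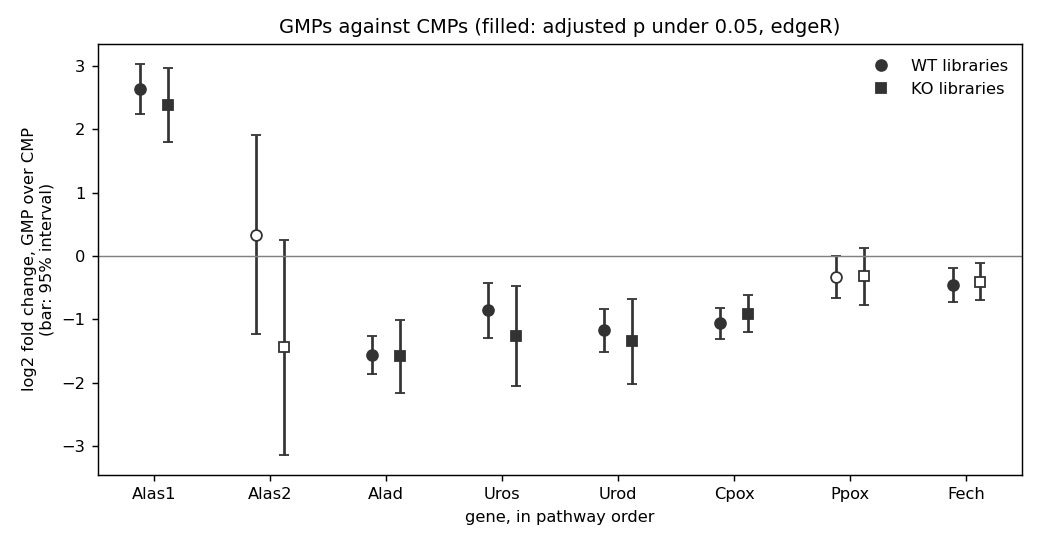
log2 fold change of GMPs over CMPs (vertical axis) for the 8 genes in pathway order, in wild-type libraries (circles) and Prss57-/- libraries (squares); bars are 95% intervals and filled symbols passed an edgeR adjusted p of 0.05. Alas1 lies above 2 in both genotypes, and Alad, Uros, Urod and Cpox lie below 0 with intervals that do not reach it.

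Of the later enzymes, the cytosolic Alad and Urod differed most. Alad, which joins 2 aminolevulinate molecules into porphobilinogen, was at 45.0, 32.7, 38.0 and 35.8 nRPKM in wild-type GMPs and at 129, 126, 94.9 and 104 in wild-type CMPs, without overlap. This is a 2.95-fold difference (log2 fold change -1.56, SE 0.14, edgeR adjusted p = 1.59e-05). Urod, which turns uroporphyrinogen into coproporphyrinogen, was at 74.7, 52.4, 52.0 and 53.7 nRPKM in GMPs and at 144, 153, 104 and 131 in CMPs. The difference was 2.25-fold (log2 fold change -1.17, SE 0.15, edgeR adjusted p = 2.53e-04), again without overlap. GMP library 1, the highest of its group for Urod, was also the one in which short genes were read highest, with a slope of -0.209 on the log2 scale per doubling of length. Uros, which closes the porphyrin ring, ranged from 6.48 to 11.0 nRPKM in GMPs and from 11.1 to 19.0 in CMPs (log2 fold change -0.86, SE 0.19, edgeR adjusted p = 0.00669). A part of Uros overlaps Bccip on the other strand, so its counts carry the same doubt about strand, as do those of Ppox, which overlaps B4galt3.

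Of the mitochondrial enzymes Cpox differed most. Cpox, coproporphyrinogen oxidase, was at 19.8, 17.8, 18.1 and 17.2 nRPKM in wild-type GMPs and at 45.2, 39.3, 36.1 and 33.5 in wild-type CMPs, a 2.09-fold difference (log2 fold change -1.06, SE 0.11, edgeR adjusted p = 5.37e-05). Ppox, protoporphyrinogen oxidase, was at 9.44 to 13.7 in GMPs and 12.2 to 16.8 in CMPs; the groups overlapped and the log2 fold change of -0.33 (SE 0.15) missed the threshold, with an edgeR adjusted p of 0.0977 and a 95% interval of -0.65 to -0.01, and passed it without GMP library 1 (0.0406) or CMP library 3 (0.0447). Fech was at 16.6 to 19.3 in GMPs and 19.9 to 28.2 in CMPs, which did not overlap (log2 fold change -0.46, SE 0.12, edgeR adjusted p = 0.0147). The call on Fech was narrow, and without GMP library 3, GMP library 4, CMP library 1 or CMP library 2 its adjusted p lay between 0.0517 and 0.0549. With each library's length slope as a covariate, a setting added after seeing the data, all 6 members after the first step were called lower, and Alas1 kept a log2 fold change of 2.64. Slopes are taken within each group, so this setting cannot take out a length difference between GMPs and CMPs. It can change the errors but hardly the fold changes.

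In Prss57-/- libraries the same 5 genes led the comparison, and the errors were wider. Alas1 was 5.20-fold higher in GMPs than in CMPs (log2 fold change 2.38, SE 0.26, edgeR adjusted p = 3.42e-04). Alad was 3.00-fold lower (log2 fold change -1.58, SE 0.26), Urod 2.54-fold lower (-1.34, SE 0.30), Cpox 1.88-fold lower (-0.91, SE 0.13) and Uros 2.40-fold lower (-1.26, SE 0.35), with edgeR adjusted p-values of 0.00256, 0.0121, 0.00141 and 0.0325. For Fech the log2 fold change was -0.41, with an edgeR adjusted p of 0.0505, and it was called under 8 of the 12 other settings tried and missed under the other 4 (DESeq2 adjusted p = 0.00345, voom 0.0478, replicate block 0.0750). Ppox was at -0.32 (edgeR adjusted p = 0.242) and Alas2 at -1.44 (0.176). In all, 1 of the 8 members was higher and 4 were lower, where 10.6% and 10.9%, or 21.5% in all, of the 14959 genes tested were (1588 and 1634 genes, or 967 and 2065 by library totals alone). Prss57-/- CMP library 2 was the highest of all libraries for Alad (183 nRPKM), Urod (244), Uros (33.6) and Ppox (21.2). Library 1 of the same group was the lowest CMP library for these 4 genes, at 83.5, 85.3, 8.82 and 11.4 nRPKM, and its length slope was the highest, 0.346. Without CMP library 2 the log2 fold changes were 2.19 for Alas1, -1.30 for Alad, -1.02 for Urod, -0.91 for Cpox and -0.90 for Uros, and all 5 kept an adjusted p under the threshold. Uros was not called without CMP library 3 or 4 or without GMP library 1, 2 or 3, with adjusted p-values of 0.0549 to 0.0941. It also overlapped between the groups, at 6.65 to 10.2 nRPKM in Prss57-/- GMPs and 8.82 to 33.6 in Prss57-/- CMPs.

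Because both genes are read in the same library, the ratio of Alas1 to a later enzyme does not depend on how libraries were scaled. Alas1 stood at 4.80 to 7.02 times the level of Alad in the 8 GMP libraries and at 0.142 to 0.564 times in the 8 CMP libraries. Against Urod the ratio was 2.94 to 4.48 in GMPs and 0.107 to 0.464 in CMPs, and against Cpox 11.1 to 13.5 and 0.594 to 1.60. Set against the summed nRPKM of the 6 later enzymes, Alas1 was 1.20 to 1.66 times as high in GMPs and 0.0481 to 0.173 times as high in CMPs. The ranges of the progenitors did not overlap for any of these 4 ratios. All 4 have Alas1 as numerator, which alone did not overlap, and Alad, Urod and Cpox were already lower in GMPs. The ratios restate these differences and are not separate results. In BMMCs the ratio to Alad was 0.555 in Prss57-/- library 3 and 2.31 to 5.81 in the other 9 libraries.

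**Figure D3:**
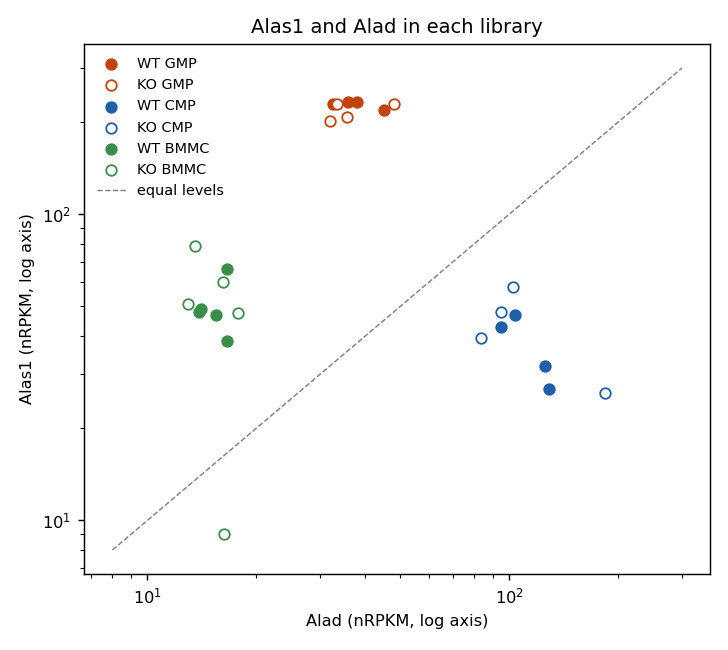
Alas1 (vertical axis) against Alad (horizontal axis), both in nRPKM on log axes, with a point for each of the 26 libraries, colored by cell type and open for Prss57-/- (KO); the dashed line marks equal levels. GMP libraries lie above the line at a ratio of 4.80 to 7.02 and CMP libraries below it at 0.142 to 0.564, and 1 BMMC library, Prss57-/- library 3, lies below the line as well.

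Genes around the pathway were compared in the same wild-type fit, and the transcripts for iron-sulfur clusters followed the later enzymes. Of 13 genes of iron-sulfur cluster assembly, 8 were lower in GMPs, none was higher and 5 were not called (median log2 fold change -0.75). They included Lyrm4 (-1.29), a partner of the cysteine desulfurase, Hscb (-1.06), a co-chaperone, and Isca1 (-1.06), an assembly factor. Of 16 genes of iron handling, 5 were higher and 7 lower (median -0.01): Tfr2, transferrin receptor 2, was lower (-1.61), as were the iron exporter Slc40a1 (-1.60) and the ferrireductase Steap3 (-1.15), and Hfe, a partner of the transferrin receptor, was higher (1.58). Of 11 tested genes for the transport of glycine, porphyrins and heme, 2 were higher and 5 lower, with Abcg2, a porphyrin exporter, at -1.47, Pgrmc1, a heme-binding partner of ferrochelatase, at -1.13, the mitochondrial glycine carrier Slc25a38 at -0.74 and Slc46a1, a heme and folate carrier, at 1.41. All these log2 fold changes passed edgeR's adjusted p of 0.05, and the median over all genes tested was -0.02. Counts over these lists and those that follow have to be read against the 19.0% of all genes called higher and the 18.8% called lower.

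Genes of heme breakdown and regulators of heme synthesis followed. Of 4 breakdown genes 3 were called, all lower: Blvrb, a biliverdin reductase, was at 17.2 ± 6.68 nRPKM in wild-type GMPs and 188 ± 50.7 in wild-type CMPs (SD, n = 4 each, log2 fold change -3.43), Hmox1, heme oxygenase 1, was at 2.83 ± 0.400 and 8.74 ± 2.94 (-1.61), and Blvra, the other reductase, changed by -0.73. The call on Blvra was lost without any one of GMP libraries 2, 3 and 4 or CMP libraries 1 and 4 (edgeR adjusted p of 0.0501 to 0.0520). Of 11 tested regulators of heme synthesis, 3 were higher and 5 lower (median -0.24), and the 4 that differed most were Klf1 (-3.70), Zfpm1 (-3.21), Gata1 (-3.06) and Tal1 (-2.02), all lower, which encode factors of erythroid and megakaryocytic transcription. Of 15 tested heme proteins, 3 were higher and 3 lower (median -0.11). The lower ones included the globin gene Hbb-bt (-1.98). Its call was lost without any one of GMP libraries 2, 3 and 4 or CMP libraries 1, 2 and 4. The higher ones were Epx, eosinophil peroxidase (6.99), Cybb, the large subunit of the NADPH oxidase cytochrome (3.32), and Mpo, myeloperoxidase, which was at 11987 ± 287 nRPKM in GMPs and 2479 ± 610.2 in CMPs (log2 fold change 2.29). Markers moved beside these genes: 14 of 16 erythroid and 7 of 8 megakaryocyte genes were lower in GMPs (median -3.24 and -4.00), all 10 granulocyte-macrophage and all 7 basophil and eosinophil genes were higher (3.02 and 6.58), and 5 of 7 tested mast cell genes were higher. The marker lists share genes with the lists above, here and in the comparisons that follow. Klf1, Gata1 and the globin genes are also erythroid markers, Mpo is a granulocyte-macrophage marker and Epx an eosinophil marker. Macrophage and dendritic cell genes were split (3 higher and 4 lower of 11), and of 8 lymphoid genes only 2 could be tested, of which Dntt was lower (-6.59). How far the mix of lineages within each gate accounts for the enzyme levels was not tested.

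In cultured wild-type mast cells Alad, Uros, Urod, Cpox and Ppox had their lowest mean of the wild-type groups, and Alas1 was far below its level in GMPs. Against wild-type GMPs, the cells from which these cultures start, 6 of the 7 members that passed the filter were lower in wild-type BMMCs and none was higher, where 40.8% of the 14754 genes tested were lower and 40.8% higher, or 81.5% in all. Alas1 was 4.91-fold lower (log2 fold change -2.29, SE 0.13, edgeR adjusted p = 1.33e-08). Urod was at 18.1 to 20.4 nRPKM in wild-type BMMCs, 3.23-fold lower than in GMPs (log2 fold change -1.69, SE 0.12, edgeR adjusted p = 6.56e-08), Alad at 13.9 to 16.6 (-1.40, SE 0.11, edgeR adjusted p = 2.16e-07) and Cpox at 7.51 to 10.2 (-1.17, SE 0.11, edgeR adjusted p = 7.99e-07). None of these 4 genes overlapped between wild-type BMMCs and GMPs. How many of all genes did not overlap was not counted, and 81.5% of all genes tested were called here. Ppox (log2 fold change -0.39, edgeR adjusted p = 0.0122) and Uros (-0.35, edgeR adjusted p = 0.0412) differed less and overlapped, and the call on Uros was lost without any one of GMP libraries 1 and 3 or of the 5 BMMC libraries (adjusted p of 0.0502 to 0.108). Fech was at a like level, with 17.1 to 18.9 nRPKM in BMMCs and 16.6 to 19.3 in GMPs (log2 fold change -0.09, 95% interval -0.26 to 0.08, edgeR adjusted p = 0.313), but scaled by library totals alone it was called lower (-0.28, adjusted p = 0.00820), a scaling that moved the median of all genes to -0.19. Alas2 was too low to be tested. Cultured BMMCs differ from sorted GMPs also in sex and run.

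Against wild-type CMPs, which share the same BMMC libraries, the gap in the later enzymes was wider still. Alad was 7.89-fold lower in BMMCs (log2 fold change -2.98, SE 0.12), Urod 7.37-fold (-2.88, SE 0.12), Cpox 4.74-fold (-2.25, SE 0.12), Uros 2.33-fold (-1.22, SE 0.14), Ppox 1.67-fold (-0.74, SE 0.13) and Fech 1.48-fold (-0.57, SE 0.11), with edgeR adjusted p-values between 2.25e-10 and 2.85e-04. None of these 6 overlapped between the groups. How many of all genes did not overlap was not counted, and 83.6% of all genes tested were called here. Alas1 showed no such drop: its log2 fold change was 0.33 (SE 0.18, 95% interval -0.06 to 0.72, edgeR adjusted p = 0.103), and it passed the threshold as higher without CMP library 4 (0.44, adjusted p = 0.0464) or BMMC library 2 (0.42, adjusted p = 0.0449). Of the 7 members tested, 6 were lower and none was higher, against 41.9% and 41.8%, or 83.6% in all, of the 15007 genes tested.

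The surroundings of the pathway also differed in BMMCs. Hmox1 was at 178 ± 17.0 nRPKM in wild-type BMMCs (SD, n = 5), 59.1-fold above GMPs and 19.1-fold above CMPs, and the ferritin genes for iron storage were higher too, with log2 fold changes against GMPs of 3.23 for Fth1 and 2.90 for Ftl1. Counts over the lists have to be read against the 40.8% of all genes called in each direction. Of the iron list 5 of 16 genes were higher and 9 lower than in GMPs, and of the 4 breakdown genes 2 were higher and 1 lower. Of 13 iron-sulfur genes 8 were lower and 1, Hspa9, was higher, among them Glrx5 (-1.64). Transport genes were lower in 8 of 11 tested, such as Abcb10 (-1.67) and Tmem14c (-1.38), both of which serve porphyrin metabolism in the mitochondrion of erythroid cells. Gata1 and Tal1 were higher than in GMPs (2.16 and 2.66) whereas Klf1 was lower (-5.64). In this comparison 5 of 11 tested regulators and 6 of 15 tested heme proteins were higher, and 5 and 8 were lower, with Mpo down to 3.71 ± 6.26 nRPKM. Beside these genes, 10 of 11 macrophage and dendritic cell markers and 9 of 10 mast cell markers were higher in BMMCs than in GMPs, and 12 of 14 tested erythroid markers were lower, with Hba-a1, Car1 and Rhd at or under 3 counts in all 5 libraries.

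Within the BMMC cultures the lowest and the highest Alas1 level fell in the libraries with the least and the most macrophage transcripts. In the Prss57-/- libraries 1 to 5 it was at 47.5, 59.9, 9.03, 51.0 and 78.7 nRPKM, so that library 3 lay far below the rest. The summed level of the 11 macrophage and dendritic cell genes in the same libraries was 15325, 16784, 1165, 15572 and 21292 nRPKM. Library 3 was thus the lowest and library 5 the highest of the 10 BMMC libraries in both measures, and among the wild-type libraries the lowest Alas1 (38.4 in library 2) also went with the lowest sum (11212). The order did not hold throughout, since wild-type library 5 had the highest sum of its group (16722) and the second-lowest Alas1 (46.9). All 11 of these markers were lower in library 3 than in any other BMMC library, with Lyz2 at 978 against 9432 to 18667 nRPKM and Flt3 at 0, where the others were at 0.0657 to 0.332. Hmox1 moved the same way (37.2 against 153 to 219), as did Cybb (14.6 against 116 to 219), whereas Gata1 moved the other way (165 against 31.1 to 51.7). Urod (36.8 against 18.1 to 21.7), Ppox (15.3 against 8.36 to 10.6) and Uros (8.94 against 6.61 to 7.70) were higher in library 3 than in the other 9, while Alad (16.3), Cpox (8.09) and Fech (19.0) stayed within their range. The part of the macrophage transcripts in the Alas1 level of the cultures was not tested.

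**Figure D4:**
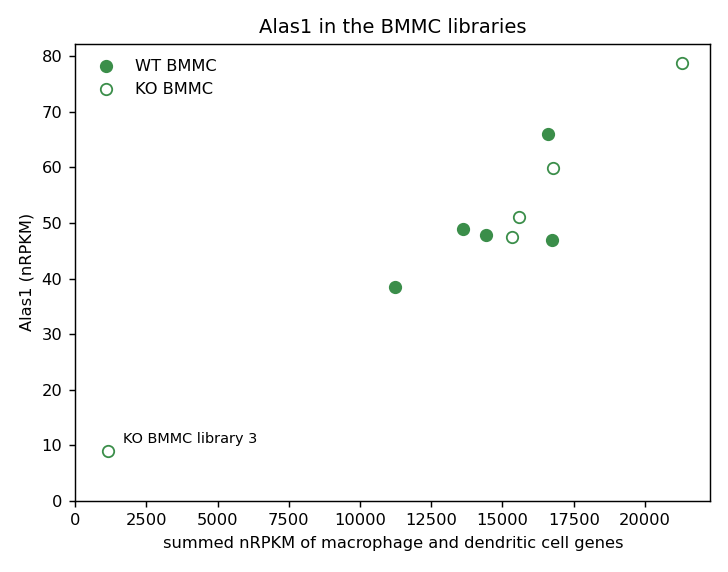
Alas1 level (nRPKM, vertical axis) against the summed nRPKM of 11 macrophage and dendritic cell genes (horizontal axis) in the 10 BMMC libraries, wild-type filled and Prss57-/- (KO) open. Prss57-/- library 3 lies at 9.03 and 1165, and the other 9 libraries lie at 38.4 to 78.7 and 11212 to 21292.

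The study asked what loss of NSP4 changes, and no heme biosynthesis gene passed the test for it in any cell type. In GMPs 0 of the 7 members tested were called, where 0.0136% of the 14689 genes tested were (2 genes, 1 of them Prss57). The fold changes of the 7 lay between -0.11 and -0.02 on the log2 scale, each with an edgeR adjusted p of 1.00. For Alas1 the means were 217 ± 14.9 nRPKM in Prss57-/- and 228 ± 6.08 in wild-type GMPs (SD, n = 4 each), and the 95% interval of the log2 fold change ran from -0.27 to 0.12. In CMPs 0 of 8 were called, against 0.00670% of 14916 genes (Prss57 alone). Intervals were wider there, from -0.42 to 0.79 for Alas1 (42.8 ± 13.4 against 37.1 ± 9.26 nRPKM), from -0.55 to 0.56 for Alad and from -0.56 to 0.09 for Cpox. As ratios, the interval of Alas1 ran from 0.745 to 1.73 in CMPs and from 0.830 to 1.09 in GMPs. Without Prss57-/- CMP library 2 the log2 fold changes in CMPs moved from 0.01 to -0.29 for Alad, from 0.12 to -0.22 for Urod and from 0.31 to -0.07 for Uros, each with an edgeR adjusted p of 1.00. With other single libraries left out they reached 0.11 for Alad, 0.28 for Urod and 0.52 for Uros. In BMMCs 0 of 7 were called, where 0% of 13938 genes were. Here the interval of Alas1 was the widest, -0.97 to 0.93, and without Prss57-/- library 3 its log2 fold change moved from -0.02 to 0.25 (SE 0.17, edgeR adjusted p = 0.804) and that of Urod from 0.27 to 0.04 (SE 0.07, edgeR adjusted p = 0.930). Ppox moved likewise from 0.23 to 0.09 (edgeR adjusted p = 0.856) and Uros from 0.08 to 0.01 (edgeR adjusted p = 0.981).

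**Figure D5:**
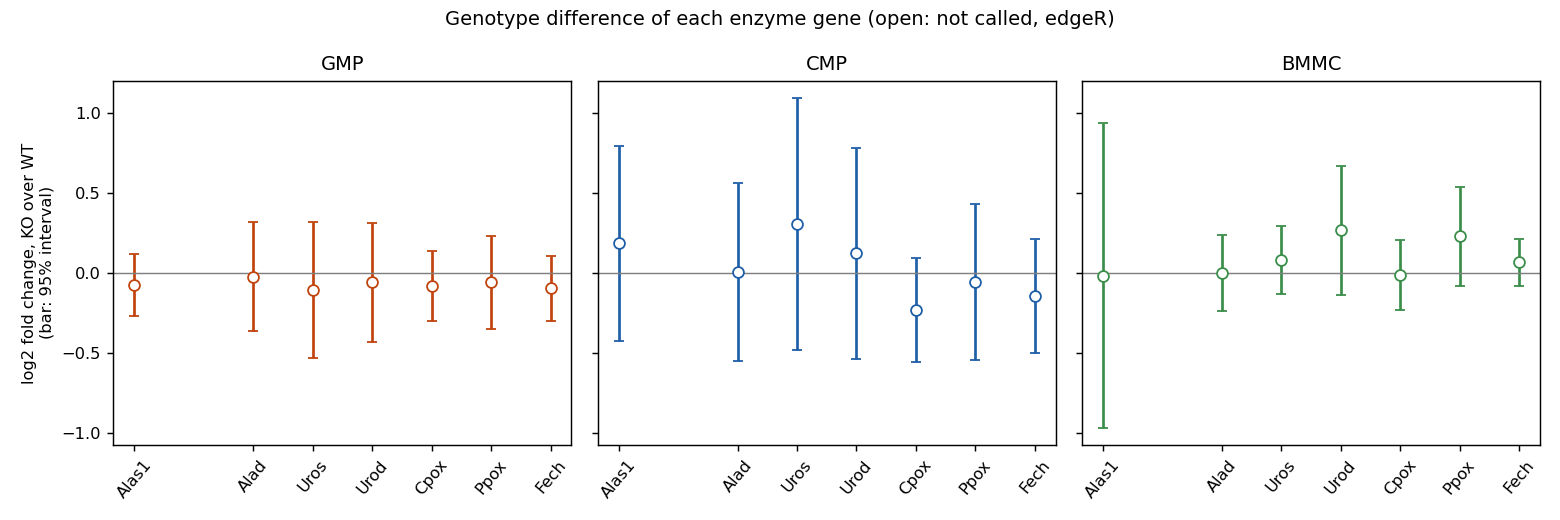
log2 fold change of Prss57-/- (KO) over wild-type (vertical axis) for 7 of the 8 genes in GMPs, CMPs and BMMCs, with 95% intervals as bars; open symbols mark that none passed an edgeR adjusted p of 0.05. Every interval includes 0; Alas2 is left out because its counts lie near or under the floor.

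At an unadjusted p under 0.05 edgeR gave 119 of 14689 genes in GMPs, 76 of 14916 in CMPs and 332 of 13938 in BMMCs, of which 0 were members in each case. Each total is a share below 0.05, so the absence of members adds little. DESeq2 and limma voom also called 0 members. With sample quality weights limma voom still called none, but gave an unadjusted p under 0.05 for 1 of 7 members in GMPs, where 1095 of 14689 genes had one, and for 5 of 8 in CMPs, where 1311 of 14916 genes did. The test of whether the genotype effect differs between GMPs and CMPs called 0 of 8 members and 0% of 15900 genes by edgeR (169 at an unadjusted p under 0.05, 0 of them members). The difference of the effects was -0.27 (95% interval -0.89 to 0.36) for Alas1 on the log2 scale and -0.04 (-0.66 to 0.58) for Alad. None of the genes in the lists around the pathway was called for genotype in GMPs, CMPs or BMMCs, including 0 of 16 iron genes, 0 of 13 iron-sulfur genes and 0 of 4 breakdown genes.

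Genes whose level went most like each enzyme were looked up over the 16 GMP and CMP libraries, as Pearson's r of log2 CPM (counts scaled to library size) among 15900 genes. These libraries share a run and fall into separate clusters by cell type, so the values within the 8 GMP and the 8 CMP libraries are given as well. Alas1 went most like Lbp and Mpo (0.998 each), Dgat2 (0.997), Hdc (0.996) and Sema4a (0.995). Within CMPs these 5 lay at 0.944 to 0.980, but within GMPs they ran from -0.251 for Hdc to 0.905 for Dgat2. The r of Alas1 with Alad was -0.972. Alad went most like Tmem238 (0.994), Tspan6 (0.990), Blvrb (0.989), Unc119 (0.988) and C1qtnf12 (0.988), with 0.685 to 0.915 within GMPs and 0.924 to 0.965 within CMPs. Urod went most like Med7 (0.997), Hebp1 (0.994), which encodes a heme-binding protein, Acadl (0.994), Armc10 (0.994) and Selenow (0.993), with 0.937 to 0.966 within GMPs and 0.972 to 0.996 within CMPs. For Uros these were Polr2e (0.990), Sdhaf2, S100a10, Eef1e1 (0.988 each) and Dhrs4 (0.987), with 0.894 to 0.940 and 0.980 to 0.992 within the cell types. For Cpox they were Slc44a1 (0.983), Cd81 (0.981), Tspan33 (0.978), Stard10 and Fmn2 (0.976 each), with 0.581 to 0.961 within CMPs but -0.346 for Fmn2, -0.0015 for Slc44a1 and at most 0.681 within GMPs. The values were lower for Ppox, at 0.933 to 0.958 with Krt10 first (0.641 to 0.964 within GMPs and 0.943 to 0.980 within CMPs), and for Fech, at 0.931 to 0.946 with Ak3 first (0.364 to 0.890 and 0.767 to 0.910), and Alas2, near the floor, reached only 0.853. Within a cell type Alad and Urod still went together (0.926 in GMPs and 0.949 in CMPs), as did Urod and Uros (0.886 and 0.932), while Alas1 and Alad were at 0.102 in GMPs and -0.820 in CMPs. Not all later enzymes went together: Cpox and Uros were at 0.701 in GMPs and -0.00776 in CMPs, and Fech and Uros at -0.400 and -0.169. These are descriptions of 16 libraries that also differ in their length slope.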

How the data were processed

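RNA was sequenced from 26 libraries of sorted GMPs, sorted CMPs and cultured BMMCs (28749 genes with at least 1 read). By the study's methods, the authors made libraries with a stranded total RNA kit, aligned single-end reads to GRCm38 with GSNAP and deposited for each library the counts of uniquely aligned reads within exons per Ensembl gene; whether strand was used in counting is not given in the sources used here. The authors also deposited nRPKM values, RPKM scaled by size factors; over the 10604 genes with at least 20 counts in every library, count over nRPKM and size factor was constant to a relative 1.5e-14. The extraction text in the labels names cells of the nervous system, which these libraries are not. Of the 52636 IDs, 52403 had a symbol. Total counts per library ran from 35501671 to 51497962 in GMPs, from 32078404 to 53264762 in CMPs and from 18627626 to 28647216 in BMMCs, and floors of 3 counts cover counting error only.

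Counts were tested in R 4.3.3 with edgeR 4.0.16 (TMM, filterByExpr, robust quasi-likelihood test), fitted for the groups compared over all genes that passed, with Benjamini-Hochberg adjustment over all of them and a threshold of 0.05. Of the 8 members, Alas2 did not pass the filter in the GMP and BMMC genotype comparisons and in both comparisons of BMMCs with progenitors. SEs were derived from the F statistic and intervals are 95%. Groups followed the labels. Alternatives were DESeq2 1.42.0, limma 3.58.1 (voom, the study's method, with and without sample quality weights), other scaling and filters, non-robust dispersion, all 26 libraries in one fit, the replicate number as a block, a stricter call (adjusted p under 0.01 and at least 2-fold), each library left out in turn and, added after seeing the data, the slope of each library on gene length (genes with a mean of at least 100 counts). Slopes were taken on each library's deviation from its own group mean. The test scripts were run on simulated data first. The members and gene lists were chosen with earlier results of these data known, so the lists carry no test of their own. A few genes of the lists are not reported here by name. Beside the members and Prss57, up to 4 genes per list were named by the largest fold change among those called, and for each member the 5 genes of highest Pearson's r of log2 CPM (prior count 2); the library values of Lyz2, Flt3, Hmox1, Cybb and Gata1 in BMMCs, and the marker genes, were picked after their values were seen. Tables were read with Python 3.11.15, pandas 2.3.3 and scipy 1.17.1.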

Additional observations from a re-analysis of the deposited data

Results flagged for a closer look

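In 4 of the 46 combinations of gene and group examined, one library lay far from the rest of its group by Dixon's gap criterion, which chance alone meets in about 1 of 20 groups. Urod was at 74.7 nRPKM in wild-type GMP library 1, where the other 3 libraries were at 52.0 to 53.7. It was at 36.8 in Prss57-/- BMMC library 3, against 18.1 to 21.7 in the other 4. Ppox was at 21.2 nRPKM in Prss57-/- CMP library 2, against 11.4 to 12.9 in the other 3. It was at 15.3 in Prss57-/- BMMC library 3, against 9.48 to 10.6 in the other 4. Wild-type GMP library 1 and Prss57-/- CMP library 2 also read short genes high relative to their own groups, with slopes of -0.209 and -0.376 on the log2 scale per doubling of length. Prss57-/- BMMC library 3 had a slope of -0.0899 and the fewest macrophage transcripts of the BMMC libraries. The part of these measures in the levels was not tested.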

How the results depend on the processing

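No heme biosynthesis gene was called for genotype under any alternative run. Counts of members called between cell types stayed within 1.5 times of those reported, except that the stricter call left 3 lower in wild-type GMPs against CMPs (Alad, Urod and Cpox) and 1 in Prss57-/- (Alad), and that Alas1 was called higher in BMMCs than CMPs with quality weights (1 member, log2 fold change 0.60). With single libraries left out, the members lower ranged from 4 to 6 in wild-type and from 3 to 5 in Prss57-/- GMPs against CMPs and from 5 to 6 in BMMCs against GMPs, and those higher in BMMCs against CMPs from 0 to 1. Scaling by library totals moved the median of all genes to -0.16 in wild-type GMPs against CMPs, -0.19 in BMMCs against GMPs and -0.31 in BMMCs against CMPs, and testing without a low-count filter to 0.12 in BMMCs against GMPs, and no called member changed direction.

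Same-numbered libraries did not deviate together throughout: their correlations ran from -0.553 to 0.319 for genotype in GMPs, from -0.327 to 0.552 in CMPs, from -0.279 to 0.320 in BMMCs, from -0.201 to 0.511 for wild-type GMPs against CMPs, from -0.00992 to 0.739 for Prss57-/-, from 0.0329 to 0.125 for BMMCs against GMPs and from -0.122 to 0.0445 for BMMCs against CMPs. Their mean was above that of differently numbered libraries for Prss57-/- GMPs against CMPs (0.279 against -0.0918), genotype in CMPs (0.248 against -0.101) and wild-type GMPs against CMPs (0.169 against -0.0917). Since the labels do not tie the numbers to animals and not every pair was above 0.1, the numbers were not taken as pairs, and whether both gates were sorted from the same animals was not tested. With the replicate block, 5 members were lower in wild-type and 4 in Prss57-/- GMPs against CMPs, 5 in BMMCs against GMPs (Uros at an edgeR adjusted p of 0.0928), 6 in BMMCs against CMPs, and 0 were called for genotype.

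All changes of direction were in differences that were not called. For genotype in CMPs, Alad turned from 0.01 on the log2 scale to -0.14 by library totals, -0.016 without a filter, -0.039 with voom, -0.28 with quality weights and -0.046 with the replicate block and with the length slope, and Urod from 0.12 to -0.040 by totals and -0.15 with quality weights. In GMPs Ppox turned to 0.029 with quality weights. In BMMCs Alas1 turned to 0.15 with quality weights, Alad to 0.0012 with RLE factors and 0.0054 with at least 10 counts in every library, and Cpox to 0.00086 with voom and 0.075 with quality weights. Between wild-type GMPs and CMPs, Alas2 turned to -0.039 with voom and -1.01 with quality weights. For the difference of the genotype effects, Alad turned to 0.12 (totals), 0.015 (no filter), 0.011 (voom), 0.23 (quality weights) and 0.0077 (length slope), Urod to 0.13 (quality weights), and Ppox to 0.14 (totals), 0.040 (no filter), 0.0017 (at least 10 counts), 0.054 (voom), 0.30 (quality weights), 0.015 (replicate block) and 0.027 (length slope). With one library left out, the genotype effect in GMPs ranged from -0.17 to 0.074 for Alad, -0.25 to 0.049 for Uros, -0.20 to 0.088 for Urod and -0.14 to 0.033 for Ppox. In CMPs it ranged from -0.29 to 0.11 for Alad, -0.071 to 0.52 for Uros, -0.22 to 0.28 for Urod and -0.29 to 0.013 for Ppox, with the sign of Uros resting on Prss57-/- library 2. In BMMCs it ranged from -0.25 to 0.25 for Alas1, -0.049 to 0.054 for Alad and -0.054 to 0.059 for Cpox. The range was -0.28 to 0.72 for Alas2 between wild-type GMPs and CMPs, and for the difference of effects -0.16 to 0.25 for Alad, -0.35 to 0.15 for Urod, -0.085 to 0.22 for Ppox and -0.017 to 0.14 for Fech. The cause of these changes was not tested. By the main fit, with 4 or 5 libraries a group, changes within the intervals given above were not detectable, and Alas2 had too few counts for a fold change to be read. Those intervals also depend on the setting. With the length slope as covariate, the SE of the genotype effect in GMPs was 0.056 for Urod and 0.073 for Alad. By the main fit it was 0.17 and 0.15.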
